A study of Mus musculus with 24 samples.

Results

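Sal003 was added to bone marrow–derived macrophages (BMDM) that were stimulated with IL-4 and IL-13, and its effect was read from the raw gene counts of 8 of the 24 libraries of the series. The 8 libraries were the 4 whose column names end in Sal003 and the 4 that end in M2, the cytokine-treated macrophages without inhibitor. The leading number of a name is the mouse, and mice 1, 2, 4 and 5 gave 1 library to each group, so that every Sal003 library has a cytokine library of the same mouse. BMDM were grown for 6 days with the growth factor M-CSF from the femur and tibia marrow of wild-type C57BL/6J female mice that were 9 weeks old. Both groups received IL-4 and IL-13, each at 20 ng/ml, over 24 hours, and the Sal003 group had in addition Sal003 at 10 µM, given from 1 hour before the cytokines. The labels name no solvent control for the group with cytokines alone, so the solvent and Sal003 cannot be told apart. Levels in the other groups are given where they place a Sal003 value. These groups were 4 libraries of naive BMDM, without cytokine, 4 with the cytokines and tunicamycin, which blocks protein N-glycosylation in the endoplasmic reticulum (ER), and 8 with the cytokines and oligomycin, which blocks the mitochondrial ATP synthase. The labels disagree on which oligomycin libraries also held ISRIB, a compound that counteracts the stress response described next, so these were treated as set A (ISRIB by title) and set B (ISRIB by library name).

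The integrated stress response (ISR) starts when a kinase phosphorylates eIF2α, a subunit of the factor that brings the initiator tRNA to the ribosome. Most protein synthesis then slows, while mRNAs such as that of the transcription factor ATF4 are translated better, and ATF4 raises genes of amino acid synthesis, amino acid uptake and tRNA charging. Sal003, a derivative of salubrinal, hinders the removal of the phosphate from eIF2α. IL-4 and IL-13 act through the kinase family JAK and the transcription factor STAT6, and turn on genes such as Retnla, Arg1, Chil3, Mrc1 and Irf4 in macrophages. Type I interferon turns on a set of antiviral genes, which naive BMDM express at a tonic level.

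Between 18674060 and 20547790 reads were counted on genes in the Sal003 libraries and between 16238727 and 19592076 in the libraries with cytokines alone. Levels are counts per 1000000 counts (CPM) on library sizes scaled by TMM, a factor that aligns the bulk of genes between libraries and was 0.936 to 0.95 with Sal003 and 0.988 to 1.03 without. The 20 most counted genes took 14.4% to 15.2% of the reads with Sal003 and 11.3% to 12.2% without. Of 17 markers of macrophages, all 17 were tested, and 6 rose and 6 fell with Sal003, against 25.9% and 24.6% of all genes. Their summed level was 19600 to 21100 CPM with Sal003 and 17500 to 20200 CPM without. The defining markers were high in both groups, with Csf1r, the M-CSF receptor, at 3732 ± 358 CPM (SD, n = 4) without and 3465 ± 155 CPM with Sal003. Markers of other marrow cells were low in both groups, and those of some of these cells were lower with Sal003. The summed level of 8 neutrophil markers was 24.1 to 44.4 CPM without and 5.09 to 8.49 CPM with Sal003, and all 6 that could be tested fell (median log2 fold change -2.4). Both of the 2 tested markers of mast cells, basophils and eosinophils fell, and their 6 markers summed to 2.19 to 3.33 CPM without and 0.0564 to 0.226 CPM with Sal003. Of 5 fibroblast markers 1 fell, and their sum was 15.3 to 86.9 CPM without and 7.77 to 48.1 CPM with Sal003. Within mice the median log2 difference of the 5 was -0.84, -0.86, -0.82 and -0.83, and the fall of Col1a1, a collagen gene, passed only in fits with the mouse as a replicate block (edgeR adjusted p = 1.04e-08, against 0.256 without). None of 8 lymphocyte and 4 erythroid markers had enough reads to be tested, Cd3d and Cd8a were at 0 in all 4 Sal003 libraries, and all 4 erythroid markers were at 0 there. The lymphocyte markers summed to 0.421 to 1.39 CPM without and 0.17 to 0.467 CPM with Sal003, and these ranges overlap. The part of these cells in the results below was not tested, and in bulk RNA fewer cells of a type and less RNA per cell cannot be told apart.

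Of 13679 genes tested, 308 were called higher with Sal003 (2.25%) and 609 lower (4.45%), which means at least 2.5-fold and a Benjamini-Hochberg adjusted p under 0.05 in edgeR's quasi-likelihood test. At adjusted p alone, 3548 genes were higher (25.9%) and 3369 lower (24.6%), so that about as many genes passed in each direction while the large changes were more often falls. Members of the gene lists below rose or fell at adjusted p alone, and these shares of all genes are their comparison. The median log2 fold change of all genes tested was 0.004, with the 5th percentile at -1.23 and the 95th at 0.83. All 308 genes called higher and 607 of the 609 called lower had moved in the called direction in every mouse, where each Sal003 library is set against the cytokine library of the same mouse. The median log2 difference of the genes called higher was 1.92, 2.01, 1.59 and 2.11 in mice 1, 2, 4 and 5, and that of the genes called lower was -2.1, -2.07, -1.96 and -2.15. The genes were called from these same libraries, so their direction and medians within mice are a description and no independent evidence.

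**Figure D1:**
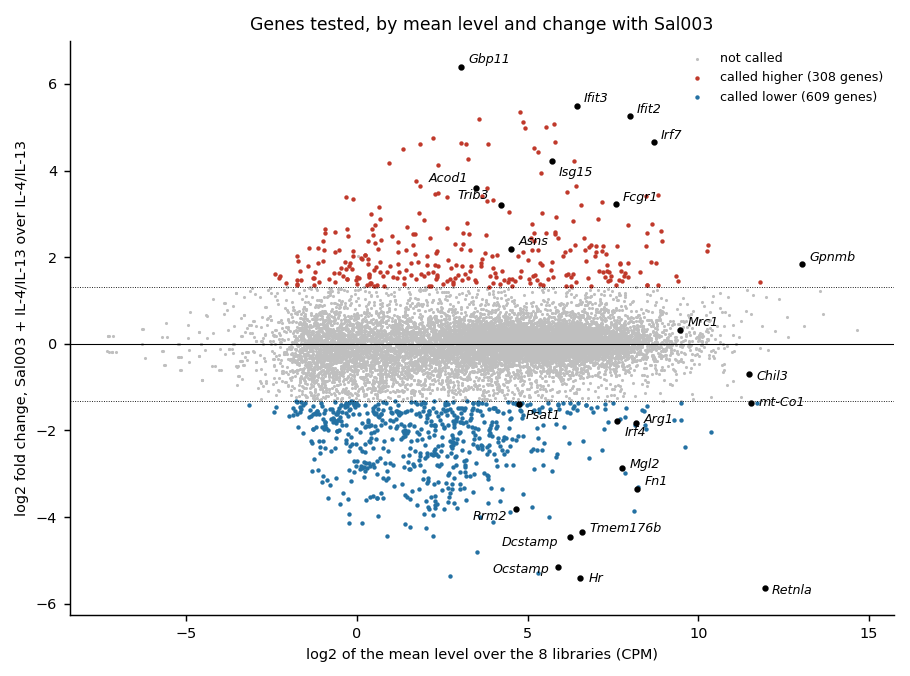
Each point is a gene tested, with the log2 of its mean level in CPM over the 8 libraries on the x axis and its log2 fold change with Sal003 on the y axis. Red points are the 308 genes called higher, blue points the 609 called lower, dotted lines mark 2.5-fold, and labelled black points are genes described in the text. The farthest points upward are Gbp11 at 6.39 and Ifit3 at 5.49, and Retnla at -5.65 is the farthest downward.

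Genes of the type I interferon response were among the largest rises. Of the 12 largest among genes with a mean of at least 50 counts, 5 (Ifit3, Ifit2, Ifi44, Ifit1 and Irf7) are in a list of 28 such genes, and the other 7 were Gbp11, Ms4a4c, Ifi208, Ly6a, Ifi206, Slfn1 and Ifit3b. Of the 28 listed genes 27 rose and 23 did so by at least 2.5-fold, against 25.9% and 2.25% of all genes, and their median log2 fold change was 2.83. The gene that did not pass was Cxcl10, a chemokine, at 0.82 ± 0.417 CPM without and 1.85 ± 1.6 CPM with Sal003 (SD, n = 4, adjusted p = 0.0551 in edgeR's quasi-likelihood test). The log2 median of the list within mice was 2.75, 2.98, 2.06 and 3.15, lowest in mouse 4. This list was chosen with earlier results of these data known, and its direction is therefore no independent evidence.

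Ifit2, whose protein binds viral RNA and limits its translation (ENSMUSG00000045932, chr19:34527932-34554524, plus strand, GRCm39), was at 12.2, 11.7, 12.3 and 15.5 CPM in mice 1, 2, 4 and 5 with cytokines alone and at 415, 536, 194 and 837 CPM with Sal003 added. Every Sal003 library lay above every cytokine library, the lowest in mouse 4 and the highest in mouse 5 (log2 fold change 5.25 ± 0.41 SE, edgeR adjusted p = 7.99e-11). Irf7, the transcription factor that amplifies interferon production (ENSMUSG00000025498, chr7:140842619-140846398, minus strand), stood at 29.5, 28, 29.9 and 39 CPM without and 719.8, 849.8, 416 and 1186 CPM with Sal003. The groups did not overlap, and mouse 4 was again the lowest (log2 fold change 4.65 ± 0.30 SE, edgeR adjusted p = 3.20e-12). Isg15, a ubiquitin-like modifier (ENSMUSG00000035692, chr4:156283883-156285303, minus strand), had 5.9, 4.84, 4.84 and 5.58 CPM without and 89.6, 106, 46.5 and 155 CPM with Sal003, with no overlap (log2 fold change 4.21 ± 0.37 SE, edgeR adjusted p = 5.46e-10). The counting setting for strand is not stated, and 31.1% of the exon bases of Isg15 also lie in a gene on the opposite strand. Ifit1 (ENSMUSG00000034459, chr19:34618271-34632174, plus strand) went from 3.68, 3.43, 4.84 and 4.98 CPM to 96.1, 114, 49 and 174 CPM in the same order of mice (log2 fold change 4.65 ± 0.37 SE, edgeR adjusted p = 1.06e-10). Ifit3, of the same family, had 3.7 ± 0.619 CPM without and 170.0 ± 101 CPM with Sal003 (SD, n = 4), but 31.7% of its 50-base stretches are shared with its copy Ifit3b, so that their separate levels are uncertain. Other rises in the list were in Rsad2, the antiviral enzyme viperin (log2 fold change 4.22), Oasl1 (4.53), Oas3 (3.42), which makes the activator of RNase L, Mx1 (2.92), Zbp1 (3.19), a sensor of Z-form nucleic acid, and Bst2 (2.75), the tetherin that holds virus particles at the cell surface.

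In naive BMDM these genes were also expressed, and the cytokines alone lowered 26 of the 28 against naive cells at adjusted p alone (30.4% of all genes, median log2 difference -3.11). With Sal003 the list stood near its naive level, with a median log2 difference from naive of 0.27, 11 of 28 genes above and 2 below at adjusted p alone (31.7% and 30.8% of all genes). Irf7 had 519 ± 65.3 CPM in naive cells and 793 ± 319 CPM with Sal003, and Ifit1 121 ± 6.28 and 108 ± 51.7 CPM (SD, n = 4 each). Gbp11, a guanylate-binding protein, was different. It had 0 to 4 counts in each naive and each cytokine library, and its level was 0.0557, 0.101, 0 and 0.243 CPM without and 14.4, 18.2, 8.83 and 25.1 CPM with Sal003. All 4 Sal003 libraries were thus far above both other groups, at 156 to 487 counts, and its fitted log2 fold change of 6.39 depends on the prior count (edgeR adjusted p = 5.95e-12). Of its 50-base stretches 19.9% occur in other genes.

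The promoters of 2 of these genes are shown because they hold the interferon-stimulated response element (ISRE), a regulatory site of interferon-induced genes. The stretches run from 220 to 46 bases before the start of the gene in RefSeq (GRCm38.p6), 5′ to 3′ on the strand of the gene, and capitals mark each match to GAAANNGAAA on either strand, a motif chosen after the values had been seen. Isg15 lies at chr4:156200864-156201038, minus strand and Ifit1 at chr19:34640669-34640843, plus strand.
Isg15: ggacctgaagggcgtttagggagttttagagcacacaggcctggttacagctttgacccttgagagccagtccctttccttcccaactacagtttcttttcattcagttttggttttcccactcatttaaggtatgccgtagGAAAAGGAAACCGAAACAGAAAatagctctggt
Ifit1: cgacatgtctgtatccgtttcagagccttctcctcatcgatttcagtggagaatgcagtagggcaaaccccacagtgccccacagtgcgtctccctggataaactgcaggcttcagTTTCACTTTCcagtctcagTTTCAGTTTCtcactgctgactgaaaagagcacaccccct
In Isg15 the matches begin 78, 72 and 66 bases before the start and overlap, and in Ifit1 they begin 104 and 85 bases before it. Promoter windows of 250 bases before to 50 after the start were at hand for 9951 of the 13679 genes tested, and 4.08% of these hold the motif. The share was 22.2% of 221 windows of genes called higher, 4.92% of 447 of genes called lower and 3.44% of all 32851 windows in the table. In the interferon list 11 of 21 windows (52.4%) hold it, among them those of Rsad2, Oas3, Stat2 and Bst2. The windows of Ifit2, Irf7 and Ifi44 hold no match. A match is a description of letters and not a measured binding site.

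**Figure D2:**
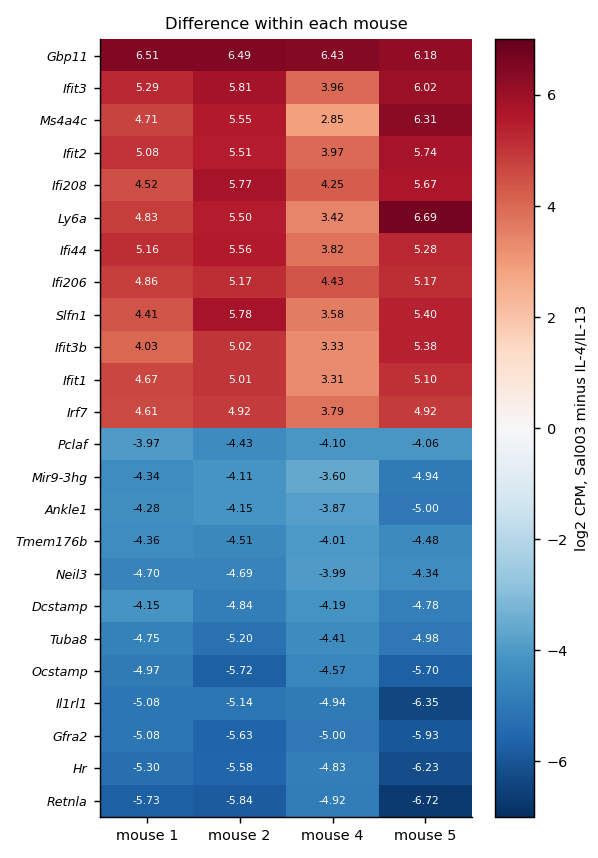
Each row is 1 of the 12 largest rises or 12 largest falls, each column a mouse, and each cell the log2 CPM difference between its Sal003 and its cytokine library, in colour and as a number. All 24 genes moved the same way in the 4 mice, which their selection required. For 11 of the 12 rises the smallest difference was in mouse 4.

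Rises outside the interferon list included 4 genes of different lists. Fcgr1, the high-affinity receptor for IgG, was at 34.4, 35.1, 38.5 and 39.7 CPM in mice 1, 2, 4 and 5 without and 313, 375, 219.7 and 469.6 CPM with Sal003. The 4 Sal003 libraries were all higher, again least in mouse 4 (log2 fold change 3.22 ± 0.21 SE, edgeR adjusted p = 2.40e-12). Acod1, the enzyme that makes itaconate, had 1.06, 1.21, 1.95 and 2.31 CPM without and 19.1, 18.9, 13.9 and 30.9 CPM with Sal003 and no overlap (log2 fold change 3.60 ± 0.31 SE, edgeR adjusted p = 3.50e-10). Cd86, a costimulatory ligand for T cells, rose from 6.02 ± 0.591 to 24.8 ± 7.29 CPM (SD, n = 4; log2 fold change 2.03), which is close to the naive level of 23.4 ± 2.22 CPM. Eif2ak2 encodes PKR, an eIF2α kinase and itself an interferon-stimulated gene, and stood at 45.5, 43.8, 47 and 45.9 CPM without and 108, 117, 93.8 and 124 CPM with Sal003 (log2 fold change 1.28 ± 0.12 SE, edgeR adjusted p = 2.99e-09). It was the 1 member among the eIF2 genes described below that changed by more than 2-fold.

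The inflammatory cytokine genes did not move as 1 group. For comparison, 25.9% of all genes rose and 24.6% fell. Of 21 listed genes 8 rose, 2 fell (Nfkbia and Tnfaip3, both brakes on NF-κB, the call of Tnfaip3 being lost without the cytokine-alone library of mouse 5 at an edgeR adjusted p of 0.0562) and the median log2 fold change was 0.23. The rises included the chemokines Ccl5, from 7.24 ± 0.364 to 24.5 ± 11.3 CPM (SD, n = 4; log2 fold change 1.75), and Ccl7 (1.66), and Il10 (1.88), an anti-inflammatory cytokine. Il6 and Nos2, genes typical of macrophages given bacterial products, had 3 counts or fewer in every library with cytokines alone, and summed to 40 and 36 counts with Sal003 against 5 and 8 without. The ratios of their levels were 7.91 (exact 95% interval 3.12 to 25.7) and 4.45 (2.03 to 11.1). These intervals cover counting error only. With Sal003 they still had no more than 14 and 15 counts in a library. Tnf, at 6.11 ± 1.69 and 6.87 ± 1.68 CPM (adjusted p = 0.478 in edgeR's test), and Il1b, at 0.502 ± 0.183 and 0.255 ± 0.0999 CPM (adjusted p = 0.141), did not pass the test. Il1b passed as lower in the fit without the 8 oligomycin libraries (edgeR adjusted p = 0.0441), an alternative chosen after the data were seen.

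Among 24 tested markers of activation by IL-4 and IL-13, 17 fell, 10 of them by at least 2.5-fold, and 6 rose, none of them by 2.5-fold. The falls compare with 24.6% and 4.45% of all genes, and the median log2 fold change of the list was -0.97. This list follows genes that the field and the study use as markers of the state, and its direction is therefore no independent evidence. Retnla, the secreted protein RELMα (ENSMUSG00000061100, chr16:48662895-48664824, plus strand, GRCm39), was at 7963, 8060, 7832 and 7161 CPM in mice 1, 2, 4 and 5 with cytokines alone and 150.0, 141, 259 and 67.9 CPM with Sal003. It was the largest fall of all named genes, with every Sal003 library far below every cytokine library and mouse 5 the lowest (log2 fold change -5.65 ± 0.32 SE, edgeR adjusted p = 2.10e-13). In naive BMDM it had 0 to 7 counts in a library, far under every Sal003 library.

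The promoter stretch of Retnla is given because it holds the palindrome that STAT6 binds, TTCNNNNGAA, in capitals, 145 bases before the start. It lies at chr16:48842389-48842563, plus strand, in RefSeq's GRCm38.p6, and covers 220 to 46 bases before the start.
Retnla: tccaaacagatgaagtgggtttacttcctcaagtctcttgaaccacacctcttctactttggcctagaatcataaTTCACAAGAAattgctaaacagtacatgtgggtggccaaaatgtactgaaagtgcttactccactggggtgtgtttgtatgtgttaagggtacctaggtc
Of 18 windows of marker genes 4 hold the palindrome (Ccl17, Clec7a, Pdcd1lg2 and Retnla), and these genes moved in both directions. This is 22.2% of the windows of the list, and 23.8% of the windows of the interferon list (5 of 21) hold it too. It occurs in 6.72% of the windows of genes tested, 9.05% of those called higher, 10.1% of those called lower and 6.95% of all windows.

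Arg1, the arginase that splits arginine into ornithine and urea (ENSMUSG00000019987, chr10:24791118-24803817, minus strand), had 465, 473, 476 and 405 CPM in mice 1, 2, 4 and 5 without and 154, 133, 132 and 94.9 CPM with Sal003. The groups did not overlap (log2 fold change -1.82 ± 0.13 SE, edgeR adjusted p = 2.43e-11), but the Sal003 level was still far above that of naive cells, which had 0 to 2 counts in a library (ratio 2460, exact 95% counting interval 962 to 9050). Of its exon bases 23.8% overlap a gene on the opposite strand. Irf4, a transcription factor of this activation state, stood at 303, 314, 297 and 316 CPM without and 88.5, 85.9, 110.3 and 71.7 CPM with Sal003, a fall in all 4 mice (log2 fold change -1.79 ± 0.09 SE, edgeR adjusted p = 4.46e-14). Mgl2, the lectin CD301b, went from 391, 374, 385 and 380.1 CPM to 55.7, 44.1, 64.7 and 44.1 CPM, also without overlap (log2 fold change -2.87 ± 0.12 SE, edgeR adjusted p = 1.71e-15), and shares 12% of its 50-base stretches with other genes. Falls of at least 2.5-fold were further found in the chemokines Ccl24 (log2 fold change -2.81), Ccl22 (-1.48) and Ccl17 (-1.49), the kinase gene Matk (-1.49) and the transcription factor gene Batf3 (-1.36).

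Other markers fell less. Chil3, a chitinase-like protein of alternatively activated macrophages, had 3503, 3646, 3997 and 3092 CPM without and 2547, 2181, 2615 and 1403 CPM with Sal003 (log2 fold change -0.70 ± 0.19 SE, edgeR adjusted p = 0.00301). All 4 values with Sal003 were lower, although 22.7% of its 50-base stretches recur in other genes such as Chil4. Egr2, a transcription factor induced early by IL-4, was at 409.9 ± 13.2 and 248 ± 12.5 CPM (SD, n = 4; log2 fold change -0.73). Cdh1, the adhesion protein E-cadherin, and Klf4 fell by similar amounts (log2 fold changes -0.74 and -0.71). The 6 markers that rose were Slc7a2, Mrc1, Clec7a, Socs1, Tgm2 and Pdcd1lg2. Mrc1, the mannose receptor CD206, stood at 558, 624, 736 and 619 CPM without and 748, 803, 849.8 and 757 CPM with Sal003, where the lowest Sal003 library was just above the highest cytokine library (log2 fold change 0.32 ± 0.09 SE, edgeR adjusted p = 0.00396). Slc7a2, an arginine transporter, was at 346 ± 19.7 and 472 ± 33.8 CPM (log2 fold change 0.45 ± 0.07 SE, edgeR adjusted p = 8.56e-06). Against naive cells 23 of the 24 markers were higher with Sal003 at adjusted p alone (median log2 difference 3.32), including all 17 that fell. Of all genes 31.7% were higher than in naive cells.

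Genes of the receptor pathway moved little in comparison. Of 11 tested, 5 rose and 2 fell (Cish and Irs2), against 25.9% and 24.6% of all genes. The median log2 fold change was 0.05. The call of Irs2, an adaptor of the IL-4 receptor, was lost (edgeR adjusted p = 0.051 to 0.0651) without any 1 of the Sal003 libraries of mice 1, 2 and 5 and the cytokine-alone libraries of mice 4 and 5. Il4ra, the receptor chain that both cytokines use, was at 91.9 ± 6.56 and 95.4 ± 2.76 CPM (SD, n = 4; adjusted p = 0.434 in edgeR's test), and Jak1 at 296 ± 13.1 and 301 ± 12.4 CPM (adjusted p = 0.756). Stat6 rose slightly (log2 fold change 0.23), and Il13ra1, the IL-13 receptor chain, went from 5.63, 5.7, 6.53 and 5.64 CPM to 11.2, 10.8, 9.96 and 11 CPM in mice 1, 2, 4 and 5. The Il13ra1 values with Sal003 were all above those without (log2 fold change 0.86 ± 0.10 SE, edgeR adjusted p = 1.20e-07). Cish, a feedback inhibitor that STAT proteins induce, fell (log2 fold change -1.51 ± 0.11 SE, edgeR adjusted p = 2.54e-11), whereas the feedback inhibitor Socs1 rose (log2 fold change 0.24 ± 0.10 SE, edgeR adjusted p = 0.04).

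**Figure D3:**
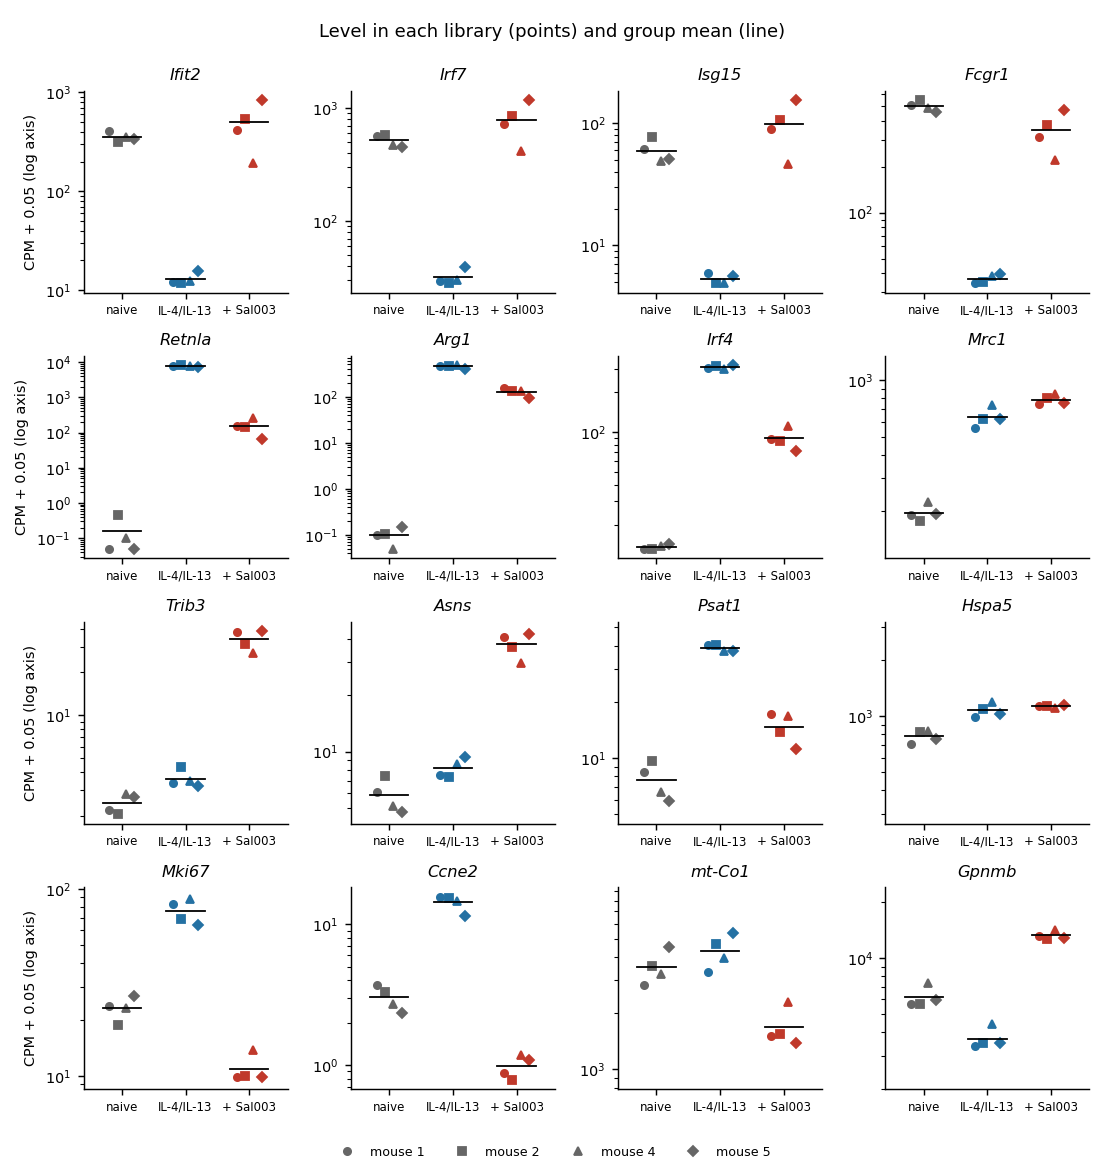
Each panel is a gene, with CPM plus 0.05 on a log axis for the 4 naive libraries, the 4 with IL-4 and IL-13 and the 4 with Sal003 added. Points are libraries, the shape gives the mouse, and the line is the group mean. Retnla, Arg1 and Irf4 lie between the naive and the cytokine level with Sal003, whereas the means of Ifit2, Irf7 and Isg15 with Sal003 lie above the naive means, with mouse 4 below the naive libraries in each.

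Beyond the activation markers, the largest falls were in genes of several functions. Hr, a corepressor of nuclear receptors, was at 174, 183, 179 and 185 CPM in mice 1, 2, 4 and 5 without and 4.31, 3.72, 6.17 and 2.37 CPM with Sal003 (log2 fold change -5.42 ± 0.17 SE, edgeR adjusted p = 6.94e-18). Il1rl1, the receptor ST2 for IL-33, had 78.9, 80.9, 76.1 and 75.4 CPM without and 2.23, 2.2, 2.38 and 0.824 CPM with Sal003, lowest in mouse 5 (log2 fold change -5.29 ± 0.21 SE, edgeR adjusted p = 3.31e-16). In both genes the groups lay far apart. Ocstamp and Dcstamp, membrane proteins needed for the fusion of macrophages into giant cells and osteoclasts, fell together. Ocstamp had 102, 124, 123 and 109 CPM without and 3.17, 2.26, 5.1 and 2.01 CPM with Sal003 (log2 fold change -5.16 ± 0.19 SE, edgeR adjusted p = 1.07e-16), and Dcstamp 134, 161, 146 and 139 CPM and 7.47, 5.53, 7.87 and 4.94 CPM (log2 fold change -4.47 ± 0.12 SE, edgeR adjusted p = 6.65e-19). Dcstamp with Sal003 was near its naive level of 6.49 ± 1.06 CPM (SD, n = 4). In the list of 10 tested fusion and osteoclast-type genes 5 fell, all by at least 2.5-fold, and 3 rose (Ctsk, Atp6v0d2 and Nfatc1). Among all genes 24.6% fell, 4.45% by at least 2.5-fold, and 25.9% rose, which is near the share of rises in the list.

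Tmem176b, a membrane channel protein of antigen-presenting cells, was the 1 gene among the 12 largest falls whose mean with cytokines alone was under that of naive cells. It had 363, 491, 372 and 347 CPM in the naive libraries, 183, 191, 173 and 192 CPM with cytokines and 8.77, 8.29, 10.6 and 8.49 CPM with Sal003. The Sal003 libraries were thus below both other groups (log2 fold change -4.34 ± 0.11 SE, edgeR adjusted p = 1.25e-19). Matrix genes also fell. Fn1, fibronectin, went from 581, 519.8, 607 and 451 CPM to 65.2, 49.8, 74.1 and 23 CPM, with the groups far apart and mouse 5 the lowest in both (log2 fold change -3.35 ± 0.38 SE, edgeR adjusted p = 6.98e-08). Mmp12, macrophage elastase, had 1299 ± 138 and 249 ± 57.4 CPM (SD, n = 4; log2 fold change -2.38). Of 15 tested growth factor and matrix genes 8 fell and 4 rose, against 24.6% and 25.9% of all genes. The share of rises is near the latter. The largest rise was that of Spp1, osteopontin, from 328 ± 45 to 965 ± 61.8 CPM (log2 fold change 1.55). Among the 12 largest falls were also Neil3, a DNA repair enzyme, and Pclaf, a partner of the replication clamp (log2 fold changes -4.43 and -4.12), Gfra2, a receptor subunit for neurotrophic factors, Tuba8, a tubulin, and Ankle1 and Mir9-3hg.

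The factors and effectors of the ISR rose for the most part, though by amounts from slight to large. Of 16 tested, 10 rose, 4 of them by at least 2.5-fold, and 2 fell, with a median log2 fold change of 0.61. Of all genes 25.9% rose, 2.25% by at least 2.5-fold, and 24.6% fell. Trib3, a pseudokinase that ATF4 and CHOP induce (ENSMUSG00000032715, chr2:152179337-152191958, minus strand, GRCm39), was at 3.34, 4.29, 3.42 and 3.16 CPM in mice 1, 2, 4 and 5 without and 38.2, 31.4, 27.2 and 38.5 CPM with Sal003. The groups lay far apart (log2 fold change 3.21 ± 0.11 SE, edgeR adjusted p = 3.05e-17). Chac1, which degrades glutathione (ENSMUSG00000027313, chr2:119180757-119184866, plus strand), had 0.279, 0.504, 0.158 and 0.425 CPM without and 2.49, 2.26, 1.36 and 2.57 CPM with Sal003, also without overlap but at few counts (log2 fold change 2.36 ± 0.23 SE, edgeR adjusted p = 3.98e-10). Gdf15, a secreted stress hormone, had 2.61 ± 0.53 and 10.2 ± 2.01 CPM (SD, n = 4; log2 fold change 1.94), and Atf5, a transcription factor, 71.6 ± 3.12 and 226 ± 11.2 CPM (log2 fold change 1.66).

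Atf4 and Ddit3, the central transcription factors, rose by less than Trib3 or Chac1. Atf4 stood at 143, 134, 124 and 142 CPM without and 214, 193, 173 and 245 CPM with Sal003, higher in all 4 mice (log2 fold change 0.60 ± 0.07 SE, edgeR adjusted p = 1.79e-07). Ddit3, which encodes CHOP, had 33.8, 31.9, 30.2 and 33.7 CPM and 62.4, 63.2, 47 and 80.9 CPM (log2 fold change 0.97 ± 0.11 SE, edgeR adjusted p = 5.12e-08), but 82.4% of its exon bases lie in a gene on the opposite strand. Ppp1r15a, which encodes GADD34, the stress-induced subunit of the eIF2α phosphatase, was at 29, 27.1, 26.2 and 31.7 CPM without and 31.8, 29.7, 27.2 and 37.7 CPM with Sal003 and did not pass the test (log2 fold change 0.15 ± 0.09 SE, edgeR adjusted p = 0.173). Its groups overlapped, although it was higher with Sal003 in each of the 4 mice, and it passed in the fit of the 8 libraries with the replicate block (adjusted p = 0.0409). Ppp1r15b, the constitutive subunit, rose (log2 fold change 0.45 ± 0.06 SE, edgeR adjusted p = 5.81e-07). The 2 falls were Ddit4, an inhibitor of mTORC1 signalling (log2 fold change -0.83), and Atf3 (-0.42), which the cytokines alone had raised from 299.8 CPM in naive cells to 866 ± 14 CPM.

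The promoter of Chac1 is shown because it holds TTGCATCA, the C/EBP-ATF composite that ATF4 heterodimers bind, in capitals, 193 bases before the start. It lies at chr2:119351022-119351196, plus strand, in RefSeq's GRCm38.p6.
Chac1: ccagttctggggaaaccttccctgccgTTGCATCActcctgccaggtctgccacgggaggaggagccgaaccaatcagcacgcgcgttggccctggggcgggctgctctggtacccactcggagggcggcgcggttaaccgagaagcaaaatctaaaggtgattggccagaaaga
Of 16 windows of ISR genes 4 hold this motif (Atf3, Chac1, Nupr1 and Vldlr), of which Chac1 and Nupr1 rose and Atf3 fell, against 0.764% of the windows of genes tested, 3.17% of those called higher, 0.447% of those called lower and 0.895% of all windows. The windows of Atf4, Ddit3, Trib3, Gdf15, Asns, Phgdh, Mthfd2 and Slc3a2 hold no match.

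Genes of amino acid supply, known targets of ATF4, rose in part. Asns, asparagine synthetase, was at 7.46, 7.26, 8.53 and 9.35 CPM in mice 1, 2, 4 and 5 without and 41.1, 36.4, 29.8 and 42.7 CPM with Sal003 (log2 fold change 2.19 ± 0.10 SE, edgeR adjusted p = 8.08e-15). Phgdh, the first enzyme of serine synthesis, had 5.07, 5.24, 5.21 and 4.67 CPM and 27.1, 20.6, 18.8 and 21.2 CPM (log2 fold change 2.10 ± 0.12 SE, edgeR adjusted p = 2.11e-13), and 28.1% of its 50-base stretches are shared with other genes. In both genes every Sal003 library was above every cytokine library. Psat1, the second enzyme of the same serine pathway, moved the other way, from 40.0, 40.4, 37.4 and 37.1 CPM to 17.2, 13.8, 16.6 and 11.2 CPM, with no overlap (log2 fold change -1.39 ± 0.13 SE, edgeR adjusted p = 9.78e-10). Mthfd2, of mitochondrial one-carbon metabolism, rose from 21.5 ± 1.41 to 49.1 ± 6.92 CPM (SD, n = 4; log2 fold change 1.19), while Shmt2, of the same compartment, was at 43.1 ± 2.26 and 42.1 ± 1.3 CPM (adjusted p = 0.647 in edgeR's test). Of 15 tested genes of serine, one-carbon and amino acid synthesis 7 rose and 4 fell (Psat1, Shmt1, Got1 and Mthfd1l), with a median log2 fold change of 0.21. Among all genes 25.9% rose and 24.6% fell, and the share of falls in the list is near the latter.

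Of 13 tested amino acid transporters 7 rose and 2 fell (median 0.23), where 25.9% of all genes rose and 24.6% fell. Slc3a2, the heavy chain of several amino acid exchangers, went from 187, 202, 212 and 206 CPM to 518, 506, 434 and 596 CPM (log2 fold change 1.35 ± 0.07 SE, edgeR adjusted p = 7.00e-14), without overlap. Slc7a11, the cystine-glutamate exchanger, was at 14.8 ± 1.8 and 11.8 ± 1.31 CPM (SD, n = 4; adjusted p = 0.0517 in edgeR's test and 0.0373 with the replicate block). It passed also with DESeq2 (adjusted p = 0.0325), and in edgeR with upper-quartile factors (0.0263) or the 8 libraries alone (0.0122). With 1 library left out, it passed without the Sal003 library of mouse 4 (0.0364) or the cytokine-alone library of mouse 2 (0.0497). It did not pass without any of the others (edgeR adjusted p up to 0.191). The neutral amino acid carrier Slc1a5 fell (log2 fold change -1.14). The cytosolic aminoacyl-tRNA synthetases, which load tRNAs with amino acids, were the more uniform group. Of 20 tested 17 rose and 1 fell (Vars1), none by 2.5-fold, with a median of 0.33, and Aars1 rose the most (log2 fold change 1.10 ± 0.06 SE, edgeR adjusted p = 2.69e-13). Ass1, which makes argininosuccinate on the way to arginine, rose from 11, 9.33, 12.3 and 11 CPM to 46.9, 49.9, 36.1 and 56.9 CPM (log2 fold change 2.11 ± 0.15 SE, edgeR adjusted p = 1.05e-11), so that it moved opposite to Arg1 in the list of 13 genes of arginine and polyamine metabolism, of which 9 rose and 3 fell (Arg1, Sms and Oaz1). A share of 19.2% of its 50-base stretches recurs in other genes.

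The ER genes of the unfolded protein response (UPR) had no common direction, with 7 of 24 higher and 8 lower and a median log2 fold change of -0.04. Among all genes 25.9% rose and 24.6% fell, and the shares of the list are not far from these. Hspa5, the ER chaperone BiP and a standard readout of ER stress, was at 986, 1090, 1196 and 1021 CPM in mice 1, 2, 4 and 5 without and 1135, 1139, 1103 and 1144 CPM with Sal003. The groups overlapped and the difference did not pass the test (log2 fold change 0.07 ± 0.07 SE, edgeR adjusted p = 0.374), and 44.2% of its exon bases lie under a gene on the opposite strand. Herpud1, of ER-associated degradation, fell (log2 fold change -1.04 ± 0.08 SE, edgeR adjusted p = 2.12e-11), as did the co-chaperone genes Sdf2l1 (-0.72) and Dnajb9 (-0.34). Of 18 genes for eIF2 kinases, phosphatase subunits, eIF2 and its exchange factor eIF2B 7 rose, 2 fell (Dnajc3 and Eif2ak1) and the median was 0.08. The kinase genes Eif2ak3 (PERK) and Eif2ak4 (GCN2) did not pass the test (log2 fold changes -0.18 and -0.05, adjusted p = 0.0576 and 0.641 in edgeR's test). Eif2ak3 passed with the replicate block (adjusted p = 0.0142) and without the cytokine-alone library of mouse 5 (0.0461), whereas the call of Eif2ak1 was lost (0.107 to 0.166) without the library of mouse 1 or 5 with Sal003 or of mouse 1 or 2 with cytokines alone.

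Of 19 targets of NRF2, the transcription factor of the antioxidant response, 12 fell and 5 rose, with a median of -0.33, where 24.6% and 25.9% of all genes did so, and the share of rises is near that of all genes. Osgin1, an oxidative stress-induced gene, had 24.3, 23.1, 22.4 and 25.4 CPM without and 5.19, 5.47, 6.06 and 4.94 CPM with Sal003, the largest fall of the list (log2 fold change -2.12 ± 0.09 SE, edgeR adjusted p = 2.77e-15). Txnrd1, thioredoxin reductase, and Srxn1, sulfiredoxin, fell as well (log2 fold changes -0.91 and -0.74), and Gstm1, a glutathione transferase, rose (0.97). The core of the antioxidant response element, TGACNNNGC on either strand, is in 17.1% of windows of genes tested, 18.6% of those called higher, 15.9% of those called lower and 12.4% of all windows.

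Genes of cell division fell with 1 exception. Of 20 tested mitosis genes 20 fell, all by at least 2.5-fold, with a median log2 fold change of -2.75, and of 22 DNA replication genes 21 fell, 12 by at least 2.5-fold, with a median of -1.39. These shares stand against 24.6% and 4.45% of all genes. Mki67, the marker of cycling cells Ki-67, was at 82.7, 68.8, 88.1 and 63.7 CPM in mice 1, 2, 4 and 5 without and 9.76, 9.87, 13.6 and 9.83 CPM with Sal003 (log2 fold change -2.81 ± 0.12 SE, edgeR adjusted p = 3.20e-15). Rrm2, a subunit of ribonucleotide reductase, had 47.2, 52, 50.0 and 38.7 CPM and 3.43, 2.93, 4.19 and 2.52 CPM (log2 fold change -3.81 ± 0.19 SE, edgeR adjusted p = 1.73e-14), and Ccne2, a G1/S cyclin, 15.7, 15.4, 14.6 and 11.4 CPM and 0.831, 0.733, 1.13 and 1.03 CPM (log2 fold change -3.80 ± 0.16 SE, edgeR adjusted p = 6.10e-16). The groups did not overlap in any of the 3 genes. The exception among the replication genes was the licensing factor Cdt1, which rose slightly (log2 fold change 0.21, edgeR adjusted p = 0.034). Its call was lost (adjusted p = 0.0743 to 0.111) without any 1 of 5 libraries, those of mice 2 and 5 with Sal003 and of mice 1, 4 and 5 with cytokines alone, and the replication clamp Pcna fell by only 0.17 on the log2 scale.

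The cytokines alone had raised all 20 mitosis genes above naive cells at adjusted p alone (30.1% of all genes, median log2 fold change 1.65). With Sal003, 18 of the 20 were below naive cells (median -1.03), whereas the replication genes were near the naive level (median -0.1, with 3 above and 7 below). Of all genes 31.7% were above and 30.8% below naive cells, and the share of replication genes below is near the latter. Of 17 tested p53 targets and inhibitors of cyclin-dependent kinases 7 rose and 4 fell. Against cytokines alone 25.9% of all genes rose and 24.6% fell, and the share of falls in this list is near the latter. Cdkn1a, which encodes the inhibitor p21, was at 362, 359, 353 and 383 CPM without and 521, 609, 444 and 678 CPM with Sal003, higher in each mouse (log2 fold change 0.63 ± 0.10 SE, edgeR adjusted p = 1.11e-05). Of 17 AP-1 and immediate early genes 11 fell and 1 rose (median -0.51). Among the falls was Myc, which drives growth and proliferation (log2 fold change -1.46). The rise was Klf6 (log2 fold change 0.11, edgeR adjusted p = 0.0478), whose call was lost without any 1 of the 8 libraries (0.0584 to 0.164) and with DESeq2 (0.09).

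Transcripts of mitochondrial DNA (mtDNA) fell unevenly. Of 13 protein-coding genes 7 had enough counted reads to be tested, and 5 of these fell, with a median log2 fold change of -1.36. Too few reads were counted on mt-Co2, mt-Co3, mt-Atp6, mt-Atp8, mt-Nd3 and mt-Nd4l. The reason was not tested, so the result covers only the 7. mt-Co1, a subunit of complex IV, had 3338, 4694, 3936 and 5339 CPM in mice 1, 2, 4 and 5 without and 1515, 1556, 2290 and 1384 CPM with Sal003, with no overlap (log2 fold change -1.36 ± 0.16 SE, edgeR adjusted p = 1.26e-07). mt-Cytb, of complex III, went from 873, 1230, 994 and 1326 CPM to 293, 294, 456 and 258 CPM (log2 fold change -1.77 ± 0.17 SE, edgeR adjusted p = 4.47e-09). In both genes mouse 4 had the highest level with Sal003. mt-Nd1 and mt-Nd2, of complex I, were at 1018 ± 219.5 and 946 ± 211 CPM and at 613 ± 126 and 559 ± 118 CPM (SD, n = 4) and did not pass the test (edgeR adjusted p = 0.606 and 0.492). Of the 50-base stretches of mt-Co1 51.1% recur in other genes of the annotation, as do 62.2% of those of mt-Nd4, and their levels are therefore uncertain. Of 30 nuclear genes of the respiratory chain and the ATP synthase 23 fell and none rose, none by 2.5-fold (median -0.29), against 24.6% of all genes that fell, and 27 were still above naive cells, against 31.7% of all genes. The mitochondrial chaperones and proteases moved the other way, with 8 of 12 higher, none lower and a median of 0.21, led by Hspa9, mitochondrial HSP70 (log2 fold change 0.61 ± 0.05 SE, edgeR adjusted p = 4.82e-11).

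Antigen presentation genes of MHC class II fell, while costimulatory Cd86 rose, as given above. H2-Ab1, the beta chain of the I-A molecule, was at 1232, 1342, 1326 and 1335 CPM in mice 1, 2, 4 and 5 without and 545, 551, 541 and 538 CPM with Sal003 (log2 fold change -1.27 ± 0.08 SE, edgeR adjusted p = 2.21e-12). Ciita, the coactivator that controls these genes, had 234, 231, 236 and 253 CPM and 90.8, 98, 104 and 89.8 CPM (log2 fold change -1.32 ± 0.07 SE, edgeR adjusted p = 4.31e-14), and neither gene overlapped between groups. Of 12 tested genes of the list 8 fell and 2 rose (Cd86 and Ctss, cathepsin S), against 24.6% and 25.9% of all genes. The median log2 fold change was -1.17. Ciita had 99.3 ± 9.92 CPM in naive cells (SD, n = 4), close to its level with Sal003. Markers of dendritic cells, which also carry MHC class II, fell with them. All 4 tested of 5 were lower with Sal003, their sum was 7.27 to 9.1 CPM without and 2.13 to 2.59 CPM with Sal003, and Xcr1 was at 0 in both groups. Their part in the result was not tested.

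Lysosomal and lipid-handling genes included several large rises. Gpnmb, a lysosomal glycoprotein of lipid-laden macrophages, was at 3366, 3520, 4443 and 3502 CPM in mice 1, 2, 4 and 5 without and 13155, 12685, 14091 and 12837 CPM with Sal003 (log2 fold change 1.83 ± 0.10 SE, edgeR adjusted p = 5.81e-14). Ctsd, the protease cathepsin D, had 1767, 1860, 2247 and 1783 CPM and 5183, 5005, 5711 and 4834 CPM (log2 fold change 1.44 ± 0.11 SE, edgeR adjusted p = 2.87e-11), with 29.2% of its exon bases also in a readthrough gene on the same strand. Both genes were higher in every Sal003 library. Of 25 lysosome and autophagy genes 16 rose and 7 fell (median 0.27), against 25.9% and 24.6% of all genes, so that the share of falls is near that of all genes. The 7 included the factors Tfeb, Tfe3 and Mitf that control such genes (log2 fold changes -0.18, -0.16 and -0.35). The call of Tfeb was lost (edgeR adjusted p = 0.0563 to 0.129) without the Sal003 library of mouse 2 or 5 or the cytokine-alone library of mouse 5. Fabp5, a fatty acid carrier, rose from 187 ± 9.16 to 685 ± 39 CPM (SD, n = 4; log2 fold change 1.87), and Ppargc1b, a coactivator of mitochondrial biogenesis that IL-4 induces, fell from 36.5 ± 0.697 to 14.1 ± 1.83 CPM (-1.36). The 13 tested genes of PPARγ and fatty acid handling had 6 rises and 5 falls. Fth1, the iron store ferritin heavy chain, went from 7374 ± 79.1 to 17050 ± 929.9 CPM (log2 fold change 1.21), and 41.5% of its exon bases lie under a gene on the opposite strand. The iron exporter Slc40a1 fell (-1.06), and 5 of the 10 tested iron genes rose and 3 fell.

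The remaining lists held smaller or mixed changes, where 25.9% of all genes rose and 24.6% fell. Of 25 sterol and fatty acid synthesis genes 11 fell and 2 rose (median -0.11), with Scd2, a desaturase, the largest fall (-1.29). Of 8 sterol efflux genes 4 rose and 2 fell, including a fall of the cholesterol exporter Abca1 (-0.99). Of 22 glycolysis and hypoxia targets 5 rose and 5 fell, of 24 ribosomal protein genes 1 rose and 6 fell, of 8 tested heat shock genes 1 rose and 4 fell, of 11 genes of the response to xenobiotics and metals 2 rose and 5 fell, and of 10 eicosanoid enzymes 1 rose and 5 fell. In the list of xenobiotics and metals 2 of the falls, Cyp1b1 and Mt1, lost their call without the Sal003 library of mouse 5 (edgeR adjusted p = 0.13 and 0.0556) or the cytokine-alone library of mouse 1 (0.0675 and 0.0867), which leaves 3 falls. That of Cyp1b1 was lost also without the library of mouse 2 with Sal003 (0.0602) or of mouse 2 or 4 with cytokines alone (0.0572 and 0.0779). Medians of these lists were between -0.23 and 0.3. The rises and falls of the glycolysis and hypoxia list are near the shares of all genes. So are the falls among ribosomal protein and sterol efflux genes.

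**Figure D4:**
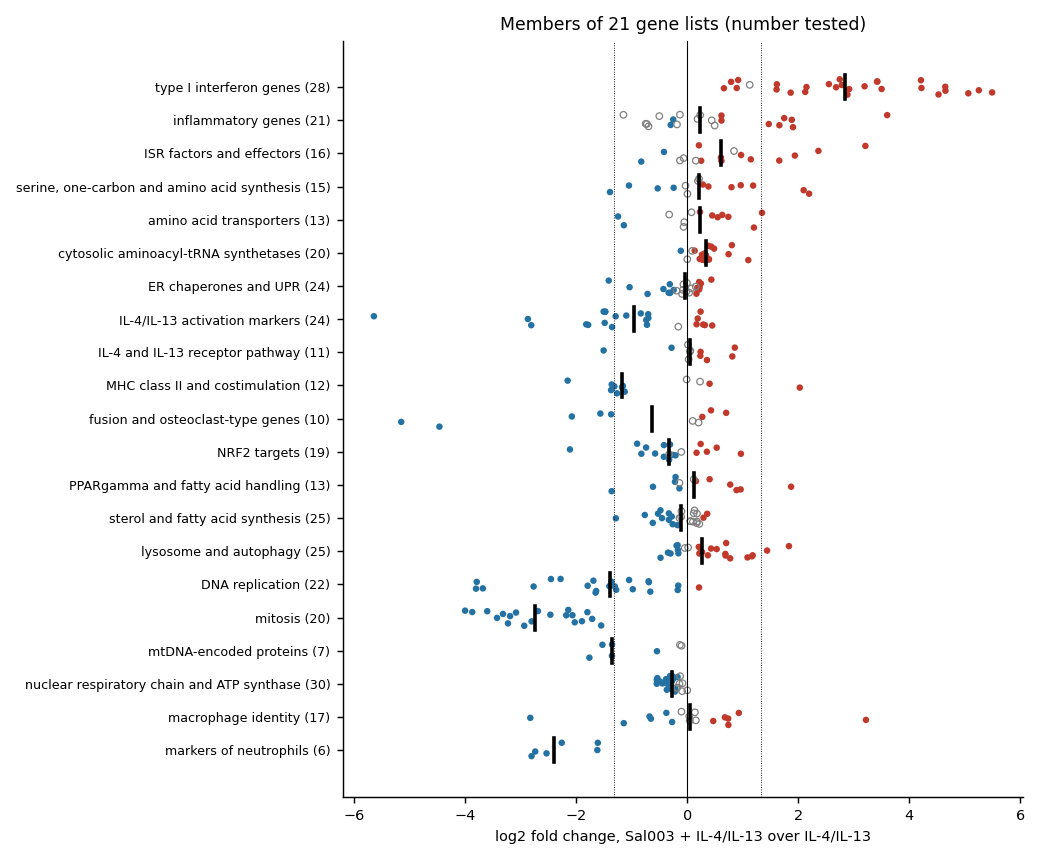
Each point is a tested member of 1 of 21 gene lists, placed by its log2 fold change with Sal003. Red points rose and blue points fell at adjusted p under 0.05, open points did not pass, the black bar is the list's median, and dotted lines mark 2.5-fold. The interferon list lies almost wholly to the right, with a median of 2.83, and the mitosis list wholly to the left, with a median of -2.75.

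Against naive BMDM, 383 genes were called higher with Sal003 and cytokines (2.8% of 13679) and 904 lower (6.61%) at 2.5-fold, and 4336 (31.7%) and 4218 (30.8%) at adjusted p alone. Naive cells differ from this group by both the cytokines and Sal003. Retnla at 154 ± 78.9 CPM was above its naive level of 0.113 ± 0.192 CPM, while Tmem176b, Fcgr1 and Ifit3 had log2 differences from naive of -5.43, -0.53 and -0.62.

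The Sal003 group was also set against every other group that had received the cytokines. At 2.5-fold, Sal003 differed from tunicamycin in 2426 genes (17.7%, 1406 higher and 1020 lower), from oligomycin set A in 471 (3.44%, 213 higher and 258 lower) and from oligomycin set B in 51 (0.373%, 20 higher and 31 lower). For each gene the largest of the 4 edgeR p-values against cytokines alone, tunicamycin, set A and set B was taken where the 4 differences had 1 sign, which tests whether the Sal003 level lies outside all 4 groups. No gene was called at 2.5-fold from each group (0% of 13679), also at unadjusted p under 0.05 and with DESeq2 in place of edgeR. At adjusted p alone 81 genes lay above (0.592%) and 47 below (0.344%) all 4 groups, and at 2-fold the count was 4. Without the Sal003 library of mouse 1 or of mouse 4 the count at 2.5-fold was 1, and the gene was Psat1 both times (smallest log2 difference -1.36 and -1.34).

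Among genes below all 4 groups the margin to the nearest group was widest for Psat1, of serine synthesis, with a mean of 14.7 ± 2.79 CPM with Sal003 (SD, n = 4) against 38.7 ± 1.72 CPM with cytokines alone and means of 42.2, 35.7 and 38.1 CPM with tunicamycin, set A and set B (smallest of the 4 log2 differences -1.28, edgeR adjusted p = 9.23e-07). Pde3b, a cAMP phosphodiesterase, had 17.9 ± 1.72 CPM with Sal003 against 41.5 ± 4.37 CPM and means of 40.5, 55.9 and 41.7 CPM in the same order (smallest difference -1.17, adjusted p = 3.37e-07). Above all groups at 2-fold were AW112010, an interferon- and lipopolysaccharide-induced transcript, with 27.7 ± 5.89 CPM against 6.58 ± 0.836 CPM and means of 1.81, 13.4 and 12.2 CPM (smallest difference 1.05, adjusted p = 1.03e-04), and Slpi, a protease inhibitor with a mean under the minimum of 50 counts, named after its values were seen (smallest difference 1.03, adjusted p = 0.0421). Thbd, thrombomodulin, and Prps1, of nucleotide synthesis, lay above all 4 groups by less, with smallest log2 differences of 0.97 and 0.79, and Rassf8 and Chst11 lay below them, with -0.93 and -0.74.

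The interferon list had median log2 differences of Sal003 from tunicamycin, set A and set B of 2.39, 0.46 and 0.13. For the mitosis list they were 0.81, -0.03 and -0.02, for the activation markers 4.75, 0.54 and 0.03, and for the ISR list -2.35, -1.8 and -0.92. The interferon, mitosis and marker lists thus stood near their level in set B, and their changes against cytokines alone are not particular to Sal003. Trib3, Asns and Retnla also place the Sal003 group among the others. Trib3 had 33.8 ± 5.48 CPM (SD, n = 4) with Sal003 and group means of 835 CPM with tunicamycin, 542 in set A and 146 in set B. Asns had 37.5 ± 5.79 CPM with Sal003 and means of 185, 161 and 146 CPM in the same order. With Sal003 both were below these 3 groups, with log2 differences of -4.62, -4.00 and -2.11 for Trib3 and -2.30, -2.10 and -1.95 for Asns, each past an edgeR adjusted p of 0.05. Retnla had a mean of 0.0119 CPM with tunicamycin, 49.6 in set A and 280.3 in set B, so that the 154 ± 78.9 CPM with Sal003 lay between the oligomycin sets (log2 differences 1.64 from set A, adjusted p = 2.43e-05, and -0.86 from set B, adjusted p = 0.0251). The inhibitors differ in target and dose, and only 1 dose of each was measured.

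**Figure D5:**
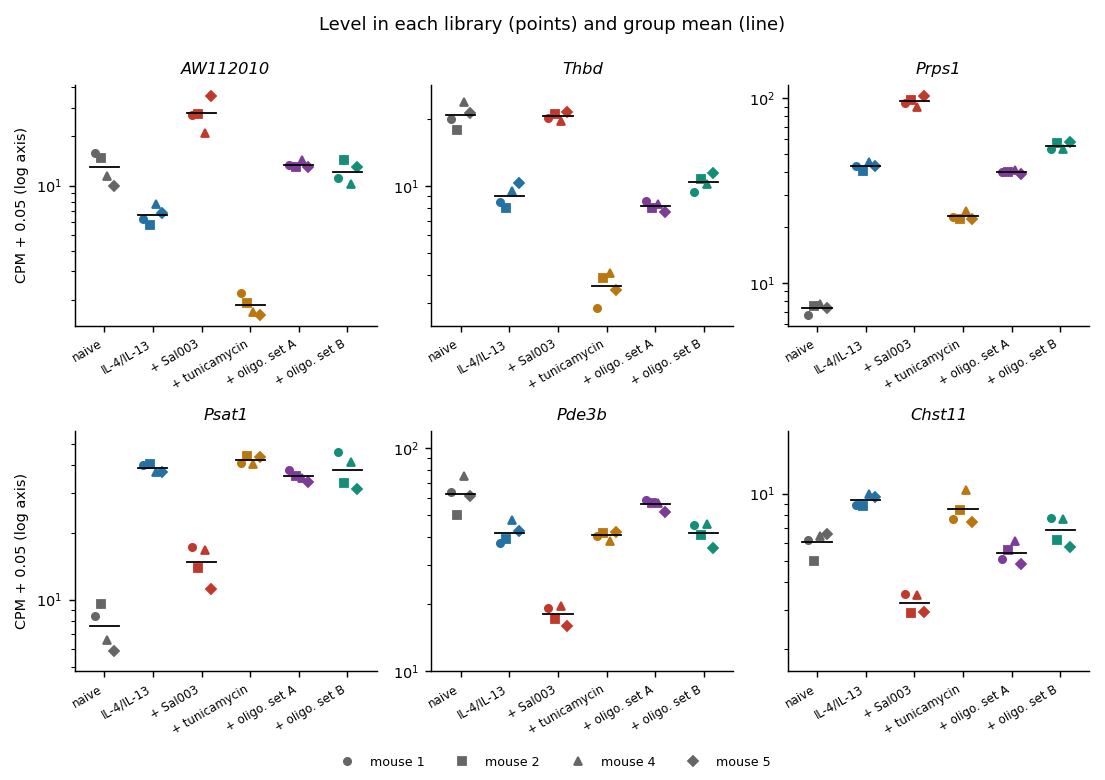
Each panel is a gene whose level with Sal003 lay outside the other cytokine groups at adjusted p alone, with CPM plus 0.05 on a log axis for the 6 groups of the series. Points are libraries, the shape gives the mouse, and the line is the group mean. For Psat1 and Pde3b the 4 Sal003 points lie under those of the other cytokine groups, and for AW112010 above them.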

How the data were processed

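RNA of 24 libraries of BMDM was sequenced after preparation with a Watchmaker mRNA kit, and 8 of them, 4 with Sal003 and 4 with cytokines alone, carry the comparison. The authors trimmed reads with cutadapt 1.8, aligned them with STAR 2.7 to the mouse genome GRCm39 and counted reads per gene with HTSeq 0.9.1 (names and versions from the submitters' processing notes). The deposited file gives raw, unnormalized counts for 56884 genes, and 5 rows that name no gene, which held 13.1% to 15.2% of reads in the 8 libraries, were left out. The strand setting is not given in the sources used here. TPM values of RSEM 1.2.31, also deposited by the authors, were not used, because their header could not be matched to the columns.

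Counts were tested with edgeR 4.0.16 in R 4.3.3 by the quasi-likelihood test, with TMM factors, filterByExpr by group (13679 genes), a prior count of 2 and 1 coefficient per condition over all 24 libraries, and p-values were adjusted by Benjamini-Hochberg over all genes tested. The median biological coefficient of variation was 7.06%. Depth per library is given in the text, and intervals of ratios of summed counts are exact and cover counting error only. No libraries of a group agreed within sampling noise (chi-square per gene 2.85 to 22.0), and none was treated as a duplicate. Libraries with 1 number come from 1 mouse. After subtraction of the group means such libraries correlated with a median of 0.236 (56 of 60 pairs above 0.1) against -0.054 for different mice. The model had no term for the mouse, as the methods of the study state none, and the replicate block was an alternative.

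Gene names and coordinates are from GRCm39 (56323 identifiers matched), promoter stretches from RefSeq on GRCm38.p6. Shared 50-base stretches were counted over annotated transcripts. The named genes were the 12 largest rises and falls with the same direction in 4 mice and a mean of at least 50 counts, the leading genes and fixed anchors of the lists, and the 8 largest differences in each direction outside the other cytokine groups. The members and lists were chosen with earlier results of these data known. The scripts were tested on simulated counts. Alternatives were DESeq2 1.42.0, upper-quartile factors, other filters, thresholds and prior counts, fewer libraries, the replicate block and leaving out each of the 8 libraries.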

Additional observations from a re-analysis of the deposited data

Results flagged for a closer look

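In groups of 4 libraries, a value was set apart where its gap to the nearest of the others, divided by the whole range of the group exceeded Dixon's critical value for 4 values. Among 168 groups 9 met this limit, or 5.36%, and chance alone gives about 1 in 20 groups. Checked were 82 genes, the total counts on genes and the percent of reads on no gene. Each was checked with Sal003 and with cytokines alone.

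In the Sal003 group, Il1rl1, the IL-33 receptor, was at 0.824 CPM in mouse 5 and at 2.2 to 2.38 CPM in the other mice (gap over range 0.885). The proliferation marker Mki67 was at 13.6 CPM in mouse 4 and at 9.76 to 9.87 CPM in the others (0.972).

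With cytokines alone, 4 genes stood apart in mouse 4, each above the other libraries. These were Gpnmb, a lysosomal membrane glycoprotein, at 4443 CPM against 3366 to 3520 CPM (0.858), Il13ra1, a chain of the IL-13 receptor, at 6.53 against 5.63 to 5.7 CPM (0.919), the kinase gene Jak1 at 315 against 287 to 291 CPM (0.86) and Slc7a11 at 17.4 against 13.6 to 14.0 CPM (0.882). In mouse 5, the interferon-induced gene Ifit2 was higher at 15.5 against 11.7 to 12.3 CPM (0.838), and Arg1 was lower at 405 against 465 to 476 CPM (0.853). In mouse 1, H2-Ab1, of MHC class II, was lower at 1232 against 1326 to 1342 CPM (0.851).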

How the results depend on the processing

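Between Sal003 and cytokines alone, 917 genes passed adjusted p and 2.5-fold (308 higher and 609 lower), and 1287 between Sal003 and naive cells (383 and 904). At 2-fold these counts were 1440 (508 and 932) and 2064 (665 and 1399), and at adjusted p alone 6917 (3548 and 3369) and 8554 (4336 and 4218). With at least 10 counts in every library, which leaves fewer genes to test, they were 460 (192 and 268) and 591 (194 and 397), and 10 of the IL-4/IL-13 activation markers fell in place of 17. The genes outside all other cytokine groups numbered 0 at 2.5-fold, 4 at 2-fold and 128 at adjusted p alone. DESeq2, upper-quartile factors, no filter on low counts and the 8 libraries alone gave 874 to 1065 genes between Sal003 and cytokines alone. With the replicate block there were 917 (306 and 611), 1289 (384 and 905) and 0 genes, and the 8 libraries with it gave 871. Among the calls it changed were those of Eif2ak3 and Slc7a11 given above and of Col1a1 (edgeR adjusted p = 1.04e-08). Leaving out each of the 8 libraries gave 899 to 989 genes (284 to 332 higher, 608 to 657 lower), 1316 to 1352 against naive cells (386 to 402 and 927 to 966), and 0 to 1 outside the other groups. Of 215 named genes 194 kept their direction and side of 0.05 in the alternatives that tested them and 0 reversed. The filter of 10 counts and the fits of the 8 libraries did not test all of them, and the filter left out Gbp11, Retnla and Hr among others. The 21 others differed from cytokines alone mostly by little or at a low level. Col1a1 (log2 fold change -0.873) and Cyp1b1 (-1.004) differed by more. The cause of the changed calls was not tested. The fit without the 8 oligomycin libraries (908 and 1263 genes) and the counts of list members under each alternative were chosen after seeing the data. Depth limits the genes at few counts, which the filters remove.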
